A study of Mus musculus with 6 samples.

Results

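miR-122 is the microRNA that marks hepatocytes, the main cell of the liver, and its hairpin gives 2 mature products: miR-122-5p, the guide arm, and miR-122-3p, its partner. The members were taken by name, as the rows of the deposited table for these 2 arms, 2 of the 1907 distinct mature miRNAs listed. Both were among the 370 miRNAs with enough counts to be tested. The 6 small RNA libraries came from whole liver of healthy C57BL/6N mice aged 12 weeks on chow diet, unmodified and untreated, 3 females and 3 males described as littermates. The series concerns SAB, a mitochondrial protein, and liver injury that depends on sex, and the comparison possible here is between the sexes before injury.

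A miRNA hairpin is cut by Drosha and Dicer into a duplex of its 2 arms. An Argonaute protein usually keeps one arm, the guide, which pairs through its seed with messenger RNAs and represses them, while the other arm is mostly degraded. In liver, transcription of miR-122 is driven by hepatocyte factors such as HNF4A. miR-122-5p holds down many messenger RNAs that hepatocytes do not use, and it influences cholesterol and fatty acid metabolism. Mice without it develop fatty, inflamed liver and later tumours, and its release into blood is used as a sign of hepatocyte injury.

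To place miR-122 among liver miRNAs, its counts are later set against those of hepatocyte miRNAs and of other abundant miRNAs. Their mature sequences are printed from RefSeq (GRCm38.p6) with the seed, bases 2 to 8, in capitals, because the seed decides which messenger RNAs an arm can pair with. The first 4 are hepatocyte miRNAs used as a reference for miR-122-5p, the next 2 are the runners-up in abundance, and the last 2 are the arms of the only tested hairpin with a more unequal pair than miR-122:
miR-192-5p: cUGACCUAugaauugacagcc
miR-194-5p: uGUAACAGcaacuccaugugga
miR-148a-3p: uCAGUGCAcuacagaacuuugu
miR-802-5p: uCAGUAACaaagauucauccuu
miR-21a-5p: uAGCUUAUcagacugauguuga
let-7f-5p: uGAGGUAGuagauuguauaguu
miR-29a-3p: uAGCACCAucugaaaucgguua
miR-29a-5p: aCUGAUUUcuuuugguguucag
No 2 of these 8 share a seed.

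The hairpin Mir122 lies on chromosome 18 of mm10, plus strand, from 65248861 to 65248926. Its first arm, miR-122-5p, spans 65248866 to 65248887 (22 bases), and miR-122-3p spans 65248901 to 65248920 (20 bases), with 13 bases between them. In GENCODE M21 the hairpin sits inside exon 5 of 5 of AC157910.3, a long noncoding RNA gene on the same strand. No protein-coding gene overlaps it: Nedd4l ends 31033 bases before it, and Alpk2, on the other strand, starts 16603 bases after it.

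Libraries held between 3285249 and 16444674 estimated counts, with the deepest and the second deepest both male. In the numbering of the sample titles all males come before all females, so an effect of that order and sex cannot be told apart. Where tissue pieces differ in makeup, fewer hepatocytes and less miR-122 per hepatocyte cannot be told apart either. Counts of different miRNAs also depend on how well the library kit captures each, which was not tested.

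miR-122-5p was the most abundant miRNA in all 6 libraries. Its deposited counts were 1910000, 1140000 and 1110000 in female replicates 1, 2 and 3, and 2170000, 1640000 and 5690000 in male replicates 1, 2 and 3. These were 33.2%, 32.5% and 33.79% of the counts in the female libraries and 33.77%, 35.5% and 34.6% in the male libraries. The sexes overlapped, since female replicate 3 stood level with male replicate 1. The spread within a sex was small: the SD was 0.64 percentage points in females and 0.875 in males (n = 3 each).

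The distance to the next miRNA was wide. miR-122-5p had 4.86, 4.46 and 5.22 times the count of the runner-up in the female libraries and 3.52, 3.75 and 4.18 times in the male libraries. The runner-up was miR-21a-5p, a miRNA linked to injury and fibrosis, in 5 libraries and let-7f-5p, of the let-7 family, in female replicate 1. This ratio was higher in every female than in every male library, and the runner-up itself differed: miR-21a-5p fell in females, with means of 63232 ± 6563 CPM against 95729 ± 8582 CPM in males (SD, n = 3 each; log2 fold change -0.60, adjusted p = 0.00169 in edgeR). CPM are counts scaled to a library of 1000000 with TMM factors, which align the bulk of the miRNAs between libraries. The next 9 miRNAs together held 40.7 to 41.1% of the counts in females and 41.0 to 42.0% in males. miR-122-5p alone thus amounted to 0.79 to 0.86 times the sum of the 9 that follow it.

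**Figure D1:**
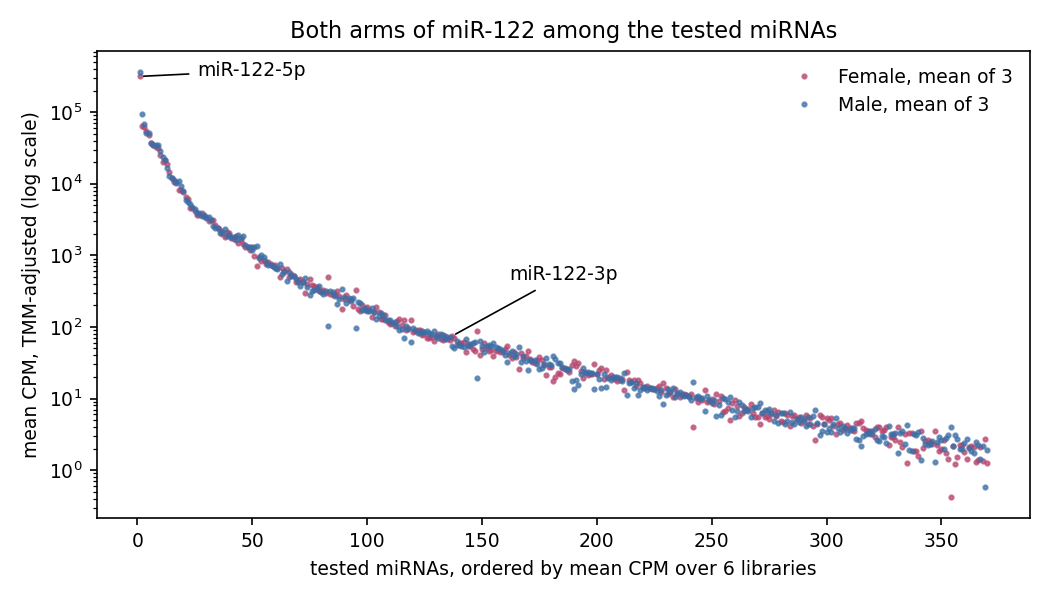
Mean CPM (TMM-adjusted, log scale) of the 370 tested miRNAs in females and in males (3 libraries each), ordered by their mean over all 6 libraries. miR-122-5p stands apart at the top, with 315746 CPM for females and 363970 for males, and miR-122-3p lies at place 137, at 74.6 and 54.6 CPM.

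miR-122-3p, the partner arm, was a minor miRNA of liver. Its counts were 356, 301 and 287 in female replicates 1, 2 and 3 and 379, 193 and 919 in the male replicates. As counts per 1000000 of the library these were 61.8 (95% exact binomial interval 55.6 to 68.6), 85.8 (76.4 to 96.1) and 87.4 (77.5 to 98.1) in females. The male libraries stood at 59.0 (53.2 to 65.2), 41.8 (36.1 to 48.1) and 55.9 (52.3 to 59.6). The intervals cover counting error only, since copies made by PCR are not independent molecules. In these unscaled values every female library was above all of the males, as for 19.2% of all tested miRNAs (25.1% in either direction), but female replicate 1 was close to male replicates 1 and 3, and their intervals overlapped. Male replicate 2 was lowest. In the order of all miRNAs of a library, miR-122-3p took place 124 to 141 in females and 140 to 153 in males.

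**Figure D2:**
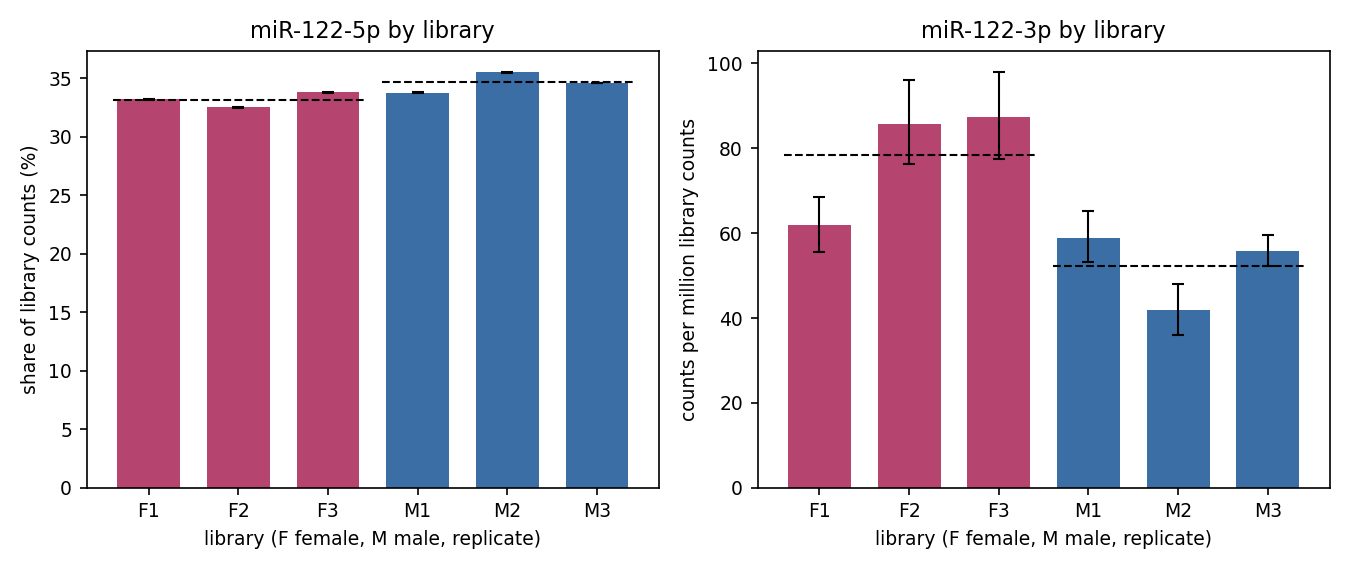
Left, share of library counts (%) taken by miR-122-5p; right, counts of miR-122-3p per 1000000 library counts, in 3 female (F) and 3 male (M) libraries, with bars from 0, exact 95% counting intervals and group means as dashed lines. The shares of miR-122-5p lie between 32.5% and 35.5% in every library, while miR-122-3p ranges from 41.8 to 87.4.

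In the comparison of the sexes, neither arm passed the threshold of 0.05, where 25 of the 370 tested miRNAs (6.76%) did, 12 higher (3.24%) and 13 lower (3.51%) in females. That split moved with scaling, to 7 higher and 19 lower with upper-quartile factors and 13 higher and 7 lower with no factor, and to 23 higher and 9 lower without female replicate 1. Before adjustment p was 0.00373 for miR-122-5p and 0.0552 for miR-122-3p (edgeR), and 18.1% of the tested miRNAs had an unadjusted p below 0.05. The 2 arms had log2 fold changes of opposite sign. miR-122-5p stood at 315381, 315470 and 316386 CPM in females and at 343399, 387169 and 361343 CPM in males. After TMM scaling each female library thus lay below each male library, as it did for 11.1% of all tested miRNAs. Female over male, its log2 fold change was -0.21 (SE 0.06, 95% interval -0.33 to -0.08; adjusted p = 0.053 by the quasi-likelihood test of edgeR, after Benjamini and Hochberg). The female mean CPM was 0.868 times the male mean.

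The size of this difference for miR-122-5p rested on the scaling. TMM factors were 1.05, 1.03 and 1.07 in females and 0.983, 0.917 and 0.958 in males, so scaling lowered every female and raised every male value. With no scaling factor the log2 fold change was -0.06 (adjusted p = 0.453, edgeR) and the groups overlapped. With upper-quartile factors it was -0.30 and passed (adjusted p = 0.00763, edgeR). Over all 370 tested miRNAs the median log2 fold change was -0.01 with TMM, 0.13 with no factor and -0.10 with upper-quartile factors. Relative to that median, miR-122-5p stood at -0.20 with TMM, -0.19 with no factor and -0.20 with upper-quartile factors. A change of factors moves all miRNAs nearly alike, so this closeness follows from the arithmetic. Relative to the median of its own fit, miR-122-5p stood at -0.10 with no low-count filter. With a single library left out it stood at -0.24 to -0.15. Of the 12 alternative fits on all libraries, 7 put miR-122-5p past the threshold, with adjusted p over the 12 from 0.00763 to 0.46. Without male replicate 1 it passed as well, at -0.27 (adjusted p = 0.0128, edgeR).

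The female CPM values of miR-122-5p had an SD of 556 CPM (n = 3), a spread finer than the file can resolve. Counts from 1000000 up are written there with 3 digits, which leaves an error of up to 0.45% in the female and 0.305% in the male counts of miR-122-5p. The male SD was 22003 CPM. Female values this close together came with TMM factors. Per 1000000 counts they ran from 325078 to 337874 with no factor and from 306332 to 321742 with RLE factors. With upper-quartile factors they ran from 292651 to 314852. Setting females at the upper and males at the lower end of the 3-digit rounding gave a log2 fold change of -0.20 (adjusted p = 0.0634, edgeR). The reverse gave -0.21 (adjusted p = 0.0448, edgeR). The call of miR-122-5p thus turned within the rounding of the table.

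miR-122-3p stood at 58.8, 83.3 and 81.8 CPM in females and at 60.0, 45.6 and 58.4 CPM in males. The groups overlapped after TMM scaling, because female replicate 1 lay just below male replicate 1. Its log2 fold change was 0.44 (SE 0.21, 95% interval -0.01 to 0.90; adjusted p = 0.294, edgeR). It did not pass in any of the 12 alternative fits on all libraries, with adjusted p from 0.14 to 0.676, or when a library was left out. The sign was positive in all of them, with log2 fold changes from 0.33 to 0.58.

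**Figure D3:**
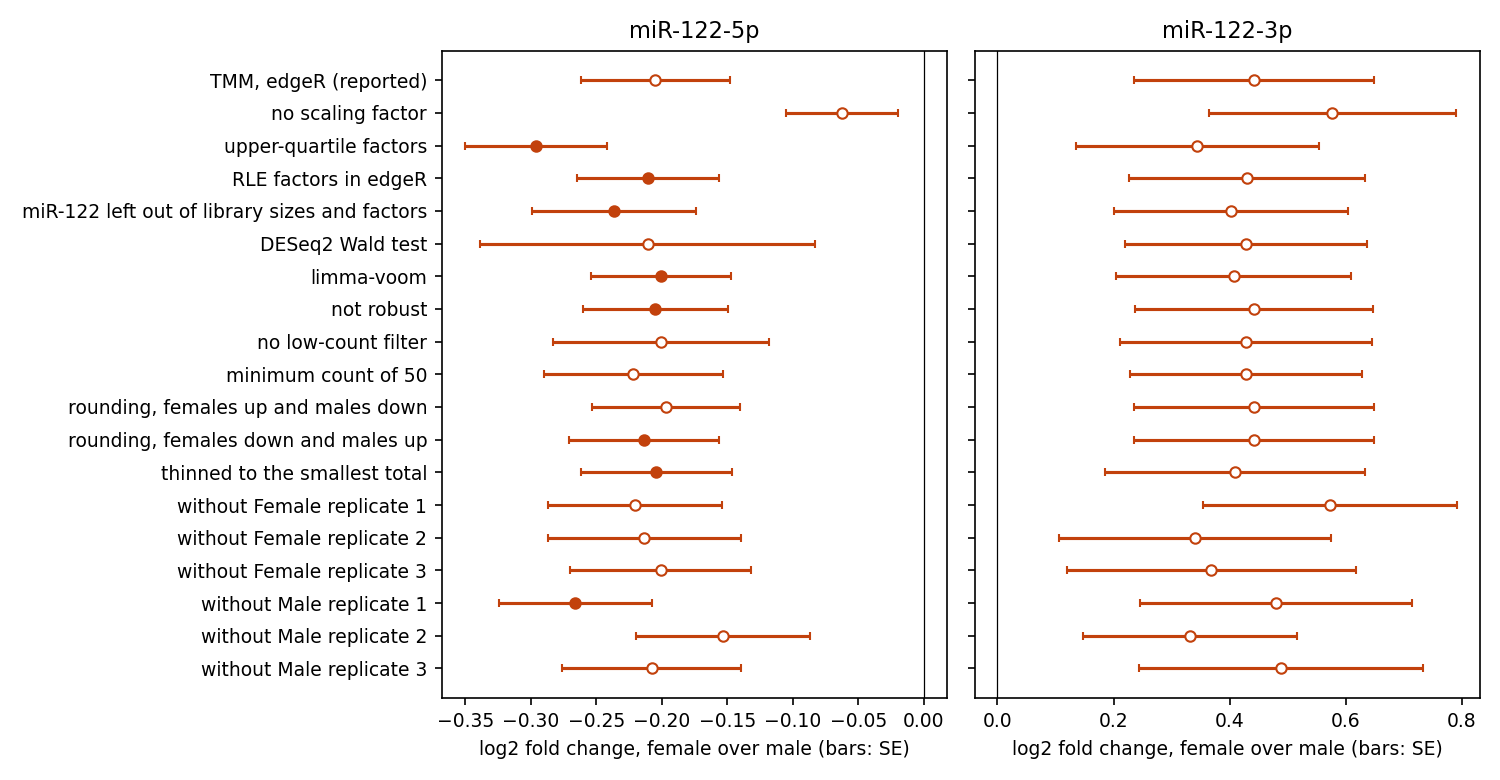
Log2 fold changes, female over male, of miR-122-5p and miR-122-3p (points) with their SE (bars) in the reported fit, 12 other fits on all 6 libraries and 6 fits that leave out a library each; filled points passed the threshold of 0.05 after adjustment. miR-122-5p is below 0 in every fit, from -0.30 to -0.06, and miR-122-3p above 0 in every fit, from 0.33 to 0.58.

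The ratio of the 2 arms within a library needs no scaling. There were 5365 (95% exact binomial interval 4836 to 5969), 3787 (3383 to 4255) and 3868 (3445 to 4357) counts of miR-122-5p for each count of miR-122-3p in female replicates 1, 2 and 3. The male replicates had 5726 (5177 to 6349), 8497 (7380 to 9836) and 6192 (5804 to 6612). Male replicate 2 had the most unequal pair, and female replicate 1 lay nearer to the males than to the other females. Every female library was below every male library, which was so for 6.52% of the 92 hairpins whose 2 arms could both be tested; groups kept apart in either direction in 9.78%. The interval of female replicate 1 overlapped those of male replicates 1 and 3.

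The log2 arm ratio of miR-122 was 12.06 ± 0.28 in females and 12.71 ± 0.30 in males (SD, n = 3 each). The difference was -0.65 (SE 0.20, 95% interval -1.10 to -0.19). It had the smallest unadjusted p of the 92 hairpins, 0.0104 in limma, but the adjusted p was 0.569 (limma, Benjamini-Hochberg adjustment over the 92 hairpins). At the threshold 0 hairpins (0%) were called by limma, and 3 hairpins (3.26%) had an unadjusted p below 0.05. An exact two-sided permutation test of the 3 against 3 libraries gave p = 0.1, the smallest this design allows, and 0.133 after adjustment over the 4 such tests made.

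Among the liver hairpins tested, miR-122 had one of the most unequal pairs of arms. Averaged over the 6 libraries its log2 arm ratio was 12.39, that is 5350 counts of miR-122-5p to 1 of miR-122-3p, where the median size over the 92 hairpins was 4.37. The only tested hairpin with a larger ratio was miR-29a, an antifibrotic miRNA whose 3p arm is the guide, at -12.67. Next came miR-101a at -11.43, let-7g at 10.84 and miR-148a at -10.83, where negative values mean that the 3p arm leads. In these 4 the minor arm had a mean of between 17.7 and 90.2 counts a library, while that of miR-122 had 406. Only arms of the same name were paired, so the 92 tested hairpins leave out those whose arms are numbered differently. One of these is let-7f, named after its values were seen. In females let-7f-5p had 62094 CPM, beside 11.3 for let-7f-1-3p and 4.36 for let-7f-2-3p. Both arms had to pass the filter on low counts. Of the 655 paired hairpins that did not, 4 had a larger ratio than miR-122 in counts summed over the libraries: miR-107, miR-146a, miR-23a and miR-27b, named after their values were seen. Their minor arms had 2 to 38 counts in all. The filter also bounds the ratio that a tested hairpin with a less abundant leading arm could reach. miR-122-5p was the most abundant miRNA, so the place of miR-122 among the 92 depends in part on its abundance. How far was not tested. The 5p arm led in 49 of the 92 tested hairpins, miR-122 among them.

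Of the other hepatocyte hairpins with both arms tested, miR-148a had a log2 arm ratio of -10.83, towards its 3p arm, against 12.39 for miR-122, and miR-192 and miR-802 were less unequal. The log2 arm ratio was 6.73 for miR-192, a miRNA of liver and gut, and 2.44 for miR-802, a hepatocyte miRNA linked to insulin resistance. Between the sexes the log2 difference was -0.10 for miR-192 (adjusted p = 0.967, limma) and 0.14 for miR-802 (adjusted p = 0.967, limma). For miR-148a, whose guide is the 3p arm, it was 0.51 (adjusted p = 0.853, limma), which as for miR-122 means a smaller excess of the guide in females. None of these differences passed.

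**Figure D4:**
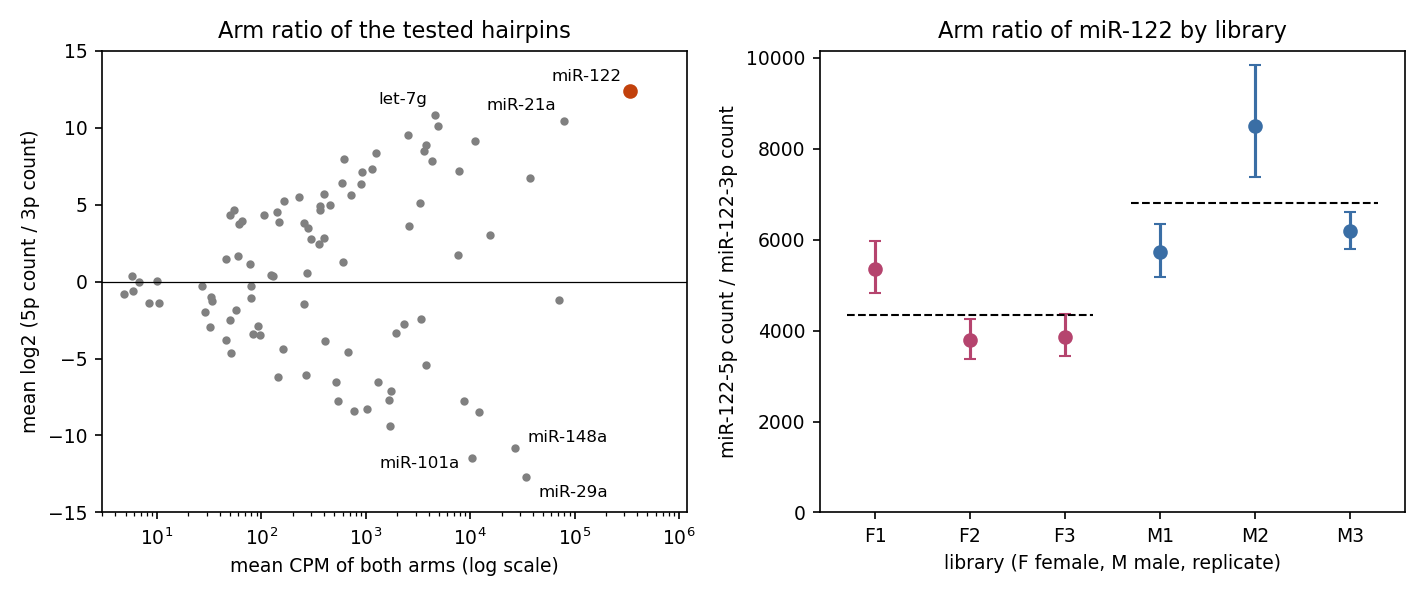
Left, mean log2 ratio of 5p to 3p counts of the 92 tested hairpins against the mean CPM of both arms (log scale), with miR-122 in orange; right, the miR-122-5p count per miR-122-3p count in each library (F female, M male) with exact 95% counting intervals and group means as dashed lines. miR-122 lies at the upper right at 12.39, and its ratio runs from 3787 to 5365 in females and from 5726 to 8497 in males.

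The libraries held the other hepatocyte miRNAs at a like total in both sexes. The list without miR-122 had 11 members, of which 10 were tested; 2 were higher in females by edgeR, where 3.24% of all tested miRNAs were. Of the 10, 7 had a log2 fold change above 0, as had 178 of all 370 (48.1%), and the median log2 fold change was 0.15 against -0.01 over all tested miRNAs. Those that rose were both arms of miR-802, with log2 fold changes of 2.29 and 2.18 for miR-802-5p and miR-802-3p (adjusted p = 0.000106 each, edgeR). The 3 most abundant did not pass: miR-192-5p stood at 0.02, miR-148a-3p, which acts on lipid uptake, at -0.18 and miR-194-5p, made from the same transcripts as miR-192 and miR-215, at 0.17. Summed, the list without miR-122 had 82125, 80836 and 83034 CPM in the female libraries and 78127, 79303 and 89322 CPM in the male libraries. The groups overlapped.

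Against these other hepatocyte miRNAs, miR-122-5p was lower in females. Its log2 ratio to the geometric mean count of the 10 was 9.84, 9.84 and 9.71 in female replicates 1, 2 and 3 and 10.47, 10.55 and 10.53 in the male replicates. The groups did not overlap. How many other miRNAs are kept apart on such ratios was not computed. In CPM 11.1% of all tested miRNAs were apart and lower in females, and 21.6% were apart in either direction. The difference of the mean log2 ratios was -0.72 (exact two-sided permutation test p = 0.1, the smallest possible, and 0.133 after adjustment over 4 tests). Most of that came with the miR-802 arms in the reference: without them the difference was -0.29, and with miR-148a-3p, miR-192-5p and miR-194-5p only it was -0.21. The count of miR-122-5p was 8.50 ± 0.0665 times that of miR-192-5p in females and 9.91 ± 0.34 times in males (SD, n = 3 each). To miR-194-5p it was 16.9 ± 0.86 and 22.1 ± 3.15 times, and to miR-148a-3p 12.6 ± 0.645 and 13.2 ± 2.51 times. The ratios to miR-192-5p ran from 8.42 to 8.54 in females and from 9.62 to 10.3 in males. Those to miR-194-5p ran from 16.0 to 17.7 in females and from 18.8 to 25.1 in males, so they were apart as well. Those to miR-148a-3p overlapped between the sexes. miR-122-3p, on the same reference of 10, stood at -2.27 ± 0.258 in females and -2.19 ± 0.266 in males, closer together than the spread within a sex. That reference holds both arms of miR-802, which were higher in females. The ratio of miR-122-3p to a reference without them was not computed, so this closeness holds for the reference of 10 only.

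Markers of other cells were present beside these hepatocyte miRNAs. Summed CPM ranged from 67757 to 71793 in females and 68743 to 76011 in males for the 2 endothelial markers, both arms of miR-126a. For the 7 stellate and stromal markers, led by miR-143-3p, miR-199a-3p and miR-199b-3p (the last 2 have the same mature sequence), the sums were 10255 to 13147 and 14030 to 14756. For the 6 leukocyte markers, led by miR-142a-3p, miR-142a-5p and miR-223-3p, they were 4042 to 4596 and 2903 to 4456. The 6 biliary and epithelial markers, led by miR-31-5p, miR-200a-3p and miR-200b-3p, had 1574 to 1774 and 1697 to 1993. The 5 erythroid markers, led by miR-486a-5p, miR-144-5p and miR-144-3p, had 230 to 390 and 242 to 289. The 3 muscle markers had 16.5 to 34.6 and 18.9 to 34.3, and the 3 neural and islet markers 5.99 to 11.7 and 5.70 to 10.9. The stromal sums did not overlap and were lower in females, as was so for the CPM of 11.1% of all single tested miRNAs. The part of these cells in the values of miR-122 was not tested.

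Of these markers, 1 of 6 leukocyte members rose in females, miR-223-3p (log2 fold change 0.62, adjusted p = 0.0467, edgeR), and 1 of 2 tested neural and islet members, miR-375-3p (1.43, adjusted p = 0.0438, edgeR). Over all tested miRNAs, 3.24% were called higher and 3.51% lower in females. miR-223-3p did not pass with upper-quartile factors (adjusted p = 0.107, edgeR), a minimum count of 50 (0.0519, edgeR) or limma-voom (0.0553), or without female replicate 2 (0.14), female replicate 3 (0.273) or male replicate 3 (0.133). miR-375-3p did not pass in DESeq2 (adjusted p = 0.0716), with no filter (0.0815, edgeR) or when any single library was left out (0.0557 to 0.22, edgeR), and it was not tested with a minimum count of 50 or after thinning. No member passed among the 2 endothelial, 5 erythroid, 7 stromal, 6 biliary and 2 tested muscle markers, and no marker passed as lower in females. The log2 fold change was above 0 for 6 of 6 leukocyte, 4 of 5 erythroid, 1 of 2 endothelial and 2 of 2 muscle markers. It was above 0 for 1 of 2 neural and islet, 0 of 7 stromal and 0 of 6 biliary markers, and for 48.1% of all tested miRNAs. Medians of the log2 fold changes were 0.30 for leukocyte, -0.02 for endothelial, 0.13 for erythroid, -0.21 for stromal, -0.22 for biliary, 0.29 for muscle and 0.56 for neural and islet markers, beside -0.01 over all tested miRNAs.

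Within a sex, miR-122-5p varied little. The SD of its log2 CPM was 0.06 within a sex, and 9 of the 370 tested miRNAs had a smaller one, 5 of them among the 11 next most abundant. No other miRNA (0) lay within 2-fold of its mean CPM, so it had no comparison at its own level. miR-122-3p had 0.25, near the median of 0.27. At its level this was ordinary: of the 64 miRNAs within 2-fold of its mean CPM, 31 varied less. The arm ratio varied as miR-122-3p did, with an SD of 0.29 within a sex against a median of 0.30 over the hairpins.

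The 2 arms did not follow each other over the 6 libraries. Likeness was taken as the root mean square difference between log2 CPM values, each centred on its mean over the 6 libraries, among 241 other miRNAs of at least 10 CPM. The arms were 0.40 apart, and 195 of the 241 were closer to miR-122-5p than miR-122-3p was. Seen from the other arm, 161 of the 241 were closer to miR-122-3p than miR-122-5p was. The miRNAs most like miR-122-5p were miR-128-3p (0.03), let-7c-5p (0.05), miR-7a-5p (0.05) and miR-872-5p (0.05), against a median of 0.24. All 4 had negative log2 fold changes, from -0.21 for let-7c-5p to -0.16 for miR-128-3p, and none of the 4 passed the threshold. Most like miR-122-3p were miR-32-5p (0.13), the erythroid miR-451a (0.13), miR-15a-5p (0.13) and miR-379-5p (0.14), against a median of 0.35. These 4 had log2 fold changes of 0.48, 0.51, 0.28 and 0.57, and none of the 4 passed either. Likeness over 6 libraries is a description of these samples and shares the TMM scaling of each library. Both sets of 4 were chosen by likeness over these same libraries, so the signs of their log2 fold changes follow from the choice.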

How the data were processed

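The members and the lists were chosen with earlier results of these data known. In the authors' deposited table each value is an estimated count of reads per mature miRNA, not normalised; 98.9% of its values were whole (tolerance 0), and the 8 values from 1000000 up have 3 digits. Partek, Bowtie and mm10 are named in the submitters' processing notes; for versions, trimming, multi-mapping reads and molecular identifiers nothing was given in the sources used here. Per the labels' protocols, tissue was frozen in stabilising buffer and the library kit was Qiagen's for miRNA. Of 2045 rows, 138 exact repeats were left out. Stops were taken to lie 1 base past the end, as held for 1613 of the 1617 miRNAs with the same start in RefSeq; 1623 of the 1907 names matched there.

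Counts were rounded to whole numbers and tested by quasi-likelihood in edgeR 4.0.16 (R 4.3.3; TMM, robust, filterByExpr with a minimum count of 10 and total of 15), with Benjamini-Hochberg adjustment over 370 miRNAs and a threshold of 0.05. Arm ratios, log2 of 5p over 3p counts with 0.5 added to each, were fitted with limma 3.58.1 (trend, robust) over hairpins with both arms tested, paired by name. Groups are the sex in the labels, and replicates follow accession order. Each library was taken as an animal, and p-values measure only the spread between these samples. No 2 libraries were duplicates (chi-square per degree of freedom at least 25.3). One count stood for 0.0635 to 0.285 CPM.

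In simulated tables edgeR called 16 of 26 miRNAs with 2-fold and 27 of 27 with 4-fold changes among 385 tested, and 2 of 332 unchanged ones. For the arm ratio limma called 40 of 40 hairpins changed 4-fold among 90, and 3 of 50 unchanged. Named miRNAs were both arms, the 5 next most abundant, the 4 most like each arm, the leading and the called members of each marker list, and hairpins near miR-122 in arm ratio. Seed sharing with miR-122 was not analysed here. Alternatives covered scaling, tool (limma-voom, DESeq2 1.42.0), filter, rounding, depth and single libraries.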

Additional observations from a re-analysis of the deposited data

How the results depend on the processing

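No paired analysis was possible because the labels carry no replicate numbers shared by the sexes. For miR-122-5p the log2 fold change came past the threshold with upper-quartile factors (-0.30), RLE factors (-0.21), miR-122 left out of the library sizes and factors (-0.24), limma-voom (-0.20), no robust option (-0.21), rounding with females down and males up (-0.21) and thinning to the smallest total (-0.20). Without single libraries it ran from -0.27 to -0.15, and past the threshold only without male replicate 1. The count of 25 miRNAs became 13 with a minimum count of 50 and 9 to 32 without single libraries (9 without female replicate 2, 10 without female replicate 3, 12 without male replicate 3). Hairpins with a changed arm ratio numbered 0 to 1 without single libraries; the 1 was miR-369, without male replicate 3, named after its values were seen. The arm ratio of miR-122 kept its sign in all 12 alternatives, from -0.81 to -0.48, and passed in none. The difference in the share of miR-122-5p stayed negative in all its alternatives and that of miR-122-3p positive. On all libraries the exact two-sided permutation test gave p = 0.2 for the share of miR-122-5p and 0.1 for that of miR-122-3p. After adjustment over the 4 such tests these were 0.2 and 0.133, and 0.1 was the smallest p that 3 against 3 libraries allow. Of 340 values of 19 other named miRNAs, 14 no longer passed, 2 newly passed, and 317 kept their sign and their side of the threshold. The other 7, none of them past the threshold, turned sign. With no scaling factor these were let-7f-5p (0.0082) and miR-126a-3p (0.072), and with upper-quartile factors miR-16-5p (-0.013) and miR-192-5p (-0.075). miR-192-5p also turned with miR-122 left out of the factors (-0.016) and without male replicate 1 (-0.039, against up to 0.040 without another library). The last was miR-148a-3p without male replicate 3 (0.0049). Shifts with scaling follow from the factors; for the rest the cause was not tested. The counts behind miR-122-3p were 193 to 919 a library, and thinning left its log2 fold change at 0.41.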
